A study of Mus musculus with 16 samples.

Results

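The genes of RNA polymerase II and its general transcription factors were followed in growing mouse oocytes that lacked the histone deacetylases Hdac1, Hdac2 or both. Members were chosen by gene symbol: the Polr2 and Gtf2 families, every Taf gene whose symbol continues with a digit, Tbp, Tbpl1, Tbpl2, Cdk7, Cdk9, Ccnt1 and Ccnt2. A member had to be read by a probe set, the group of short probes that reads a transcript on these arrays, with exactly 1 gene symbol in the platform annotation, and the brightest probe set stood for a gene that had several. This gave 57 genes of the 18820 measured in the same way. RefSeq lists 60 protein-coding mouse genes under these names, and of the other 3 Gtf2h2 was not analysed here. Taf1c and Taf6l were read by probe sets that also name another gene, Dnaaf1 for Taf1c and Tmem179b for Taf6l, so they are not counted as members.

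Each group held 4 biological replicates, and each replicate was 1 array of RNA from 80 oocytes of C57BL/6 mice at 12 days of age. The groups were the Hdac1/2 double knockout, the Hdac2 knockout, the Hdac1 knockout and the wild type. The knockouts combined conditional alleles of Hdac1, Hdac2 or both with a Zp3-Cre transgene, which deletes in growing oocytes, so the somatic cells of the ovary and the earliest oocytes keep the genes. The sources used here do not say whether the wild-type mice carried the transgene or the conditional alleles. The study asked what each deacetylase does while the oocyte grows.

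Polymerase II copies protein-coding genes into RNA. At a promoter, TFIID, made of the TATA-binding protein and its associated TAF proteins, and TFIIA, TFIIB, TFIIE, TFIIF and TFIIH place the enzyme and open the DNA, and the kinase pair of Cdk9 with a T-type cyclin, called P-TEFb, then releases it into elongation. Mouse oocytes are known for a different arrangement: the TBP paralogue Tbpl2 takes the place of TBP during oocyte growth and works with TFIIA, and Taf4b, a form of Taf4 enriched in the gonads, is needed for a normal oocyte reserve. Hdac1 and Hdac2 remove acetyl groups from histones within shared co-repressor complexes.

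The values are deposited log2 signals, with the base inferred. Levels of different probe sets are compared only to choose the brightest of a gene and to describe markers and probe sets as bright or dim. Signals are relative to the rest of the RNA on an array, so less of a transcript and more of the other RNA in an oocyte cannot be told apart. All 14 oocyte markers lay above the median signal of tested probe sets in every genotype, while 2 or 3 of 12 granulosa markers, 0 of 12 theca and stroma markers and 2 of 9 blood, immune and endothelial markers did. The mean signal of the granulosa markers lay between 4.89 and 5.08 in the double knockout and between 4.81 and 4.97 in wild type. Limma called 5 of the 12 in the double knockout, or 41.7%, beside 38.3% of all tested probe sets. Gja1, Inha and Wt1 were higher by 0.74, 0.59 and 0.56, and Nr5a2 and Kitl lower by 1.07 and 0.37. Of the oocyte markers 1 was called higher and 4 lower, with changes over the list from -0.56 to 1.08. Of the theca and stroma markers 2 were called higher. Of the blood, immune and endothelial markers 1 was called higher and 1 lower, with changes from -1.37 to 0.38. The part of these markers in the results was not tested. Hdac1 changed by -1.62 on the log2 scale in the double knockout and by -2.66 in the Hdac1 knockout. Its signal was higher in the double knockout than in the Hdac1 knockout by 1.04 (limma adjusted p = 5.22e-08). In the Hdac2 knockout Hdac1 was higher than in wild type by 0.36 (limma adjusted p = 0.0172). The Hdac2 probe set changed by -0.21 in the double knockout and by -0.10 in the Hdac2 knockout, so it did not show the deletion, and libraries are named by their labels. The array medians of the double knockout were higher than those of wild type by 0.09 on average.

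In the double knockout against wild type, the large subunit of the polymerase (Polr2a), the elongation kinase Cdk9, the TBP-like factor Tbpl1 and the polymerase-associated gene Polr2m rose, while Gtf2h3 of TFIIH, Gtf2e1 of TFIIE, Taf1b of the polymerase I factor and Taf5l of the SAGA co-activator fell. These 8 were the members called with a change of 1.4-fold or more, the limit that the series' design text names. A gene was called at a limma adjusted p under 0.05, with the adjustment over all 21218 probe sets tested. Of the 57 members 20 were called, 10 higher and 10 lower, or 35.1%, beside 38.3% of all tested probe sets, of which 18.5% were higher and 19.8% lower. At 1.4-fold or more, 4 members were higher and 4 lower, where 8.35% and 8.01% of tested probe sets were. The median change was 0.05 over the members and -0.01 over all tested probe sets. The share of members called was near that of all tested probe sets. Of the 57 members 53 lay above the median signal of tested probe sets, so these shares compare sets of unlike brightness. The same holds for the shares in the other comparisons, and the part of brightness in them was not tested. After median centring of every array, 6 members were called higher and 22 lower, and 2878 probe sets were higher and 6275 lower against 3924 and 4198 as deposited. Each of the 8 largest changes kept its call and direction under that centring.

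**Figure D1:**
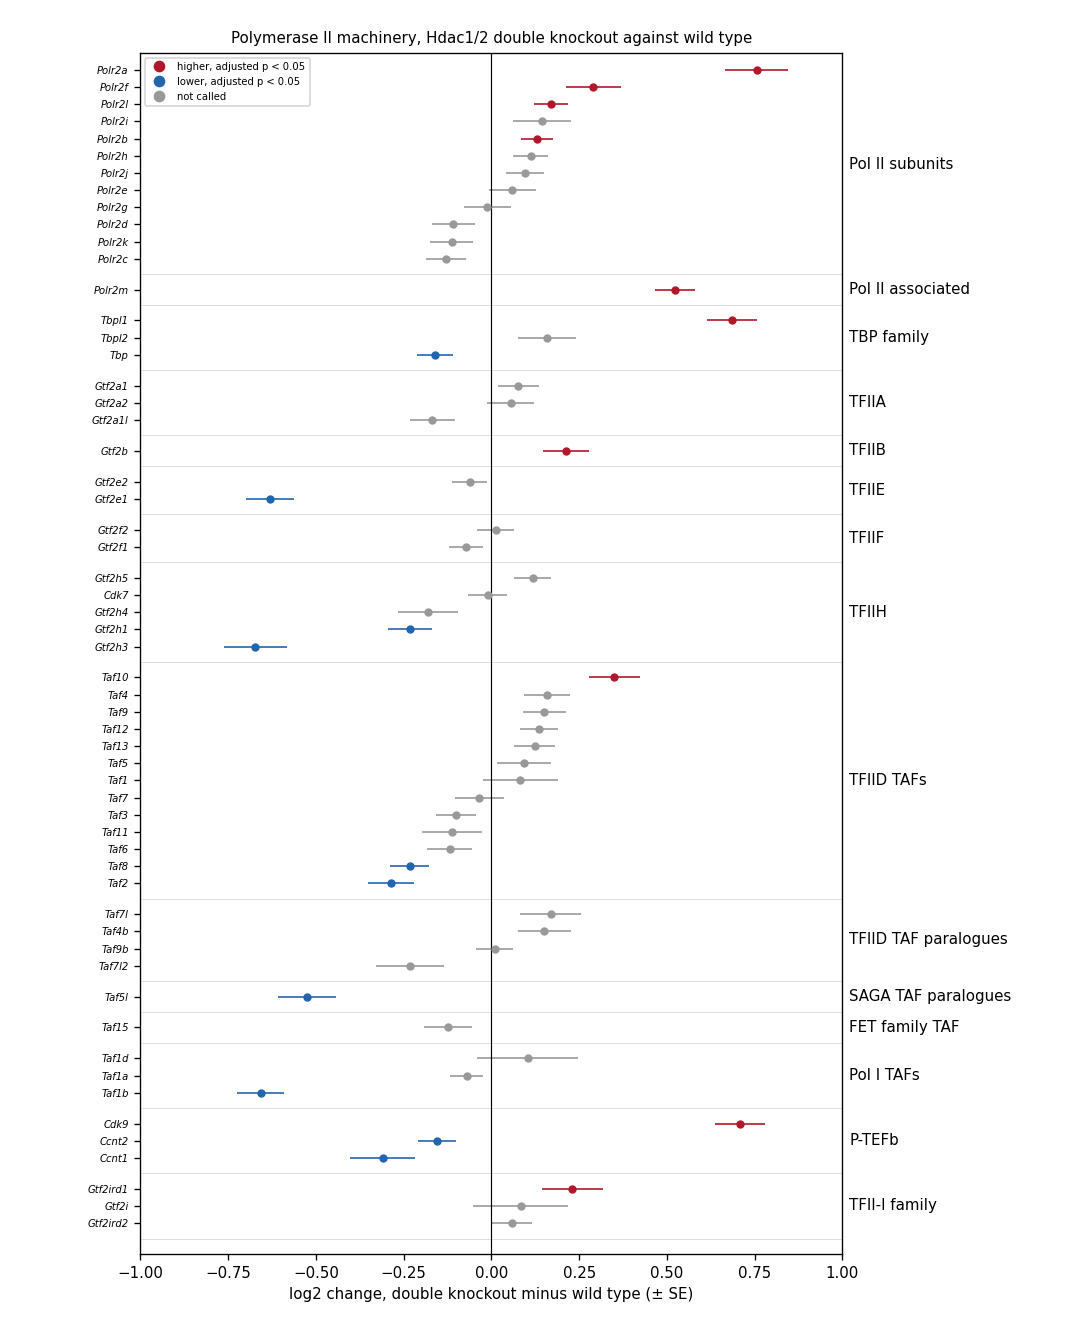
Change of the 57 members in the Hdac1/2 double knockout, on the horizontal axis as the log2 difference from wild type with its standard error, grouped by role down the page. Red points are called higher, blue points lower and grey points neither (limma adjusted p under 0.05); the changes ran from -0.67 for Gtf2h3 to 0.76 for Polr2a.

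Among the subunits of the polymerase itself, 4 of 12 (33.3%) rose in the double knockout and the other 8 were not called. Of all tested probe sets 38.3% were called, 18.5% higher and 19.8% lower. Polr2a encodes the catalytic subunit whose repeated tail is phosphorylated during transcription. Its log2 signal was 10.01, 9.79, 10.04 and 9.89 in double-knockout arrays, against 9.05, 9.21, 9.25 and 9.20 in wild-type arrays. The groups did not overlap, and the rise was 1.69-fold (log2 change 0.76 ± 0.09 SE; limma adjusted p = 4.54e-06). In the Hdac2 knockout the arrays read 9.94, 9.51, 9.48 and 9.57, all above wild type, and in the Hdac1 knockout 9.28, 9.23, 9.20 and 9.35, which overlapped wild type. One Hdac2-knockout array, replicate 1, stood within the range of the double knockout.

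Polr2f, a small subunit shared by polymerases I, II and III, rose 1.22-fold to 9.96 ± 0.05 in the double knockout, against 9.67 ± 0.13 in wild type (SD, n = 4; limma adjusted p = 0.00727). Polr2l, another shared subunit, rose 1.12-fold and Polr2b, the other large subunit, 1.1-fold (limma adjusted p = 0.01 and 0.0318). Both of these calls were lost after median centring of the arrays (limma adjusted p = 0.22 and 0.53). Polr2b was also lost without wild-type replicate 1 or 2 or double-knockout replicate 2 or 3 (limma adjusted p = 0.0656 to 0.0912) and with a replicate block (0.0575). Polr2a and Polr2f stayed called higher under that centring.

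The 8 other subunits, Polr2c, Polr2d, Polr2e, Polr2g, Polr2h, Polr2i, Polr2j and Polr2k, changed by -0.13 to 0.14 on the log2 scale and were not called. Polr2c stood at -0.13, while probe sets that name it beside Dok4 changed by 0.18 and 0.09, also not called (limma adjusted p = 0.0594 and 0.433). The median over the 12 subunits was 0.10. Second, dimmer probe sets of Polr2h and Polr2k were called in opposite directions, at 0.26 and -0.38 (limma adjusted p = 0.0165 and 0.0164), while the brighter ones that represent these genes were not. RefSeq lists pseudogenes of Polr2d and Polr2k, and a near copy may share probes, so these genes are read with less certainty. Polr2m, which encodes a protein bound to the polymerase, had 8.95, 8.99, 9.03 and 9.09 in double-knockout arrays, against 8.38, 8.60, 8.48 and 8.51 in wild-type arrays. No double-knockout array fell to the wild-type range, and Polr2m rose 1.44-fold (log2 change 0.52 ± 0.06 SE; limma adjusted p = 1.96e-06).

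All 3 P-TEFb genes were called in the double knockout, the kinase higher and its cyclins lower, beside 38.3% of all tested probe sets. Neither cyclin kept its call in every fit that left out 1 array. Cdk9, which phosphorylates the polymerase tail and pausing factors, read 8.66, 8.48, 8.65 and 8.65 in double-knockout arrays, against 7.90, 7.99, 7.85 and 7.86 in wild-type arrays. The lowest double-knockout array was above the highest wild-type array, and Cdk9 rose 1.63-fold (log2 change 0.71 ± 0.07 SE; limma adjusted p = 6.92e-07). The values were 8.14, 7.98, 7.98 and 8.02 in the Hdac2 knockout and 7.85, 7.98, 7.99 and 8.20 in the Hdac1 knockout. Neither knockout of 1 gene was called for Cdk9, at 0.13 and 0.11 (limma adjusted p = 0.355 and 0.721).

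Ccnt1, the cyclin T1 partner of Cdk9, had 8.81, 8.58, 8.70 and 8.90 in double-knockout arrays, against 8.99, 8.97, 9.23 and 9.03 in wild-type arrays. It fell by 0.31 ± 0.09 SE (limma adjusted p = 0.0132), with the groups apart, and the call was lost without wild-type replicate 3 (limma adjusted p = 0.0517). A second probe set, which also names 9330020H09Rik, changed by -0.23 and was not called (limma adjusted p = 0.0833). Ccnt1 values in the Hdac2 knockout were 9.07, 9.09, 8.76 and 8.91 and in the Hdac1 knockout 9.24, 9.06, 8.94 and 9.19, both overlapping wild type.

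Ccnt2, the related cyclin T2, read 9.26, 9.24, 9.26 and 9.45 in double-knockout arrays, against 9.39, 9.45, 9.51 and 9.50 in wild-type arrays. These groups overlapped at double-knockout replicate 4, and the fall of 0.16 (limma adjusted p = 0.0319) was lost without wild-type replicate 2, 3 or 4 or double-knockout replicate 1, 2 or 3 (limma adjusted p = 0.0545 to 0.089). In the other knockouts Ccnt2 had 9.42, 9.40, 9.40 and 9.51 after Hdac2 loss and 9.48, 9.46, 9.50 and 9.53 after Hdac1 loss. Cdk7, the kinase of TFIIH, lay at 9.33, 9.45, 9.45 and 9.45 in double-knockout arrays, against 9.42, 9.39, 9.57 and 9.36 in wild-type arrays. These overlapped, the change was -0.01 ± 0.05 SE (limma adjusted p = 0.906), and the arrays of the other knockouts ran from 9.38 to 9.51.

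**Figure D2:**
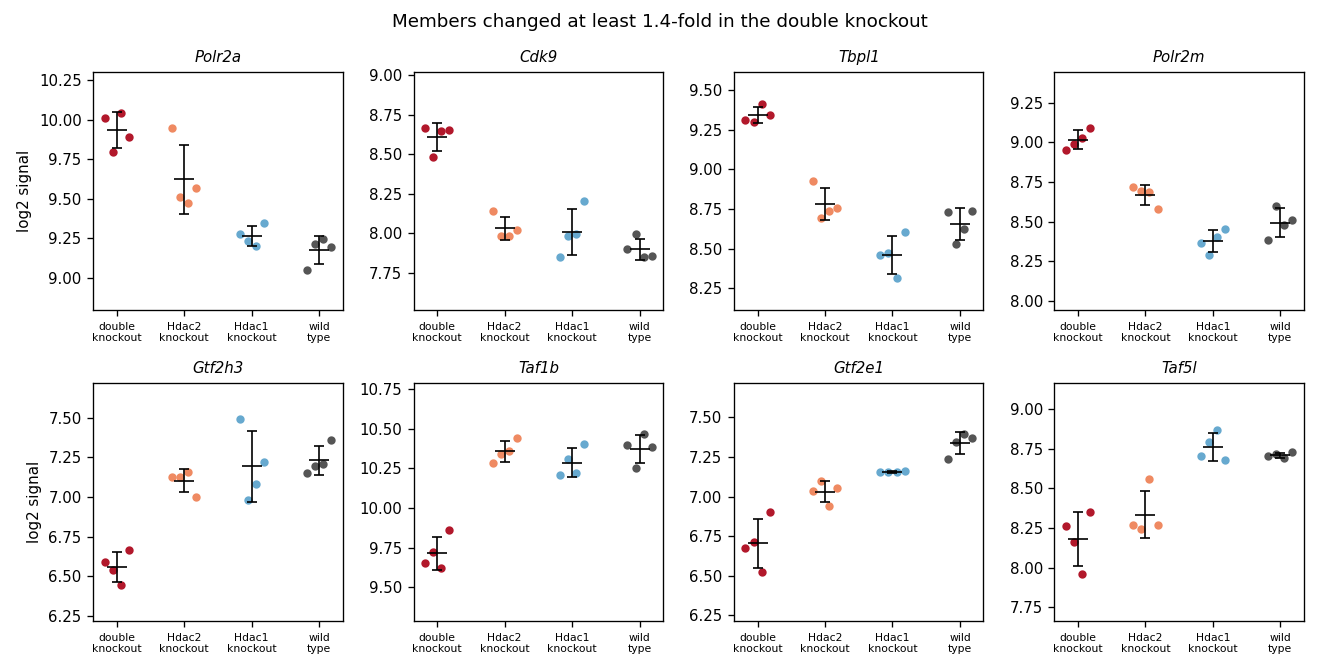
Log2 signal (vertical axis) of the 8 members changed at least 1.4-fold in the double knockout, with 4 arrays per genotype as points, the mean as a bar and the SD as whiskers; each panel has its own range. The upper row holds the genes that rose and the lower row those that fell, and in every panel the double-knockout arrays lie outside the wild-type range.

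Promoter sequence was examined for the members that moved furthest, which were picked by their change in these data. Whether a deacetylase acted at these promoters was not tested. The sequences come from RefSeq on build GRCm38.p6, whose table held 60 annotated starts for 50 of the 57 members, and the 150 bases before a start were searched on both strands for TATAAA (the TATA box, read by TBP), CCAAT (the CCAAT box) and GGGCGG (the GC box, read by Sp-family factors). A GC box stood in 58.3% of the members' starts, against 28.6% of all 32851 starts and 38.0% of the starts of protein-coding genes. A TATA box stood in 10.0% of the members' starts, against 7.57% of all, and a CCAAT box in 18.3%, against 24.5% of all. The median GC content of this window was 62.7% at the members' starts and 54.0% at all starts. A match of letters is a description and not a bound site. The 6 genes changed at least 1.4-fold with 1 annotated start are shown, 5′ to 3′ and ending at the base before the start, with matches in capitals and the rest in lower case. The genes that rose are Polr2a at chr11:69758634-69758783 on the minus strand, Cdk9 at chr2:32712785-32712934 on the minus strand and Tbpl1 at chr10:22731448-22731597 on the minus strand.
Polr2a: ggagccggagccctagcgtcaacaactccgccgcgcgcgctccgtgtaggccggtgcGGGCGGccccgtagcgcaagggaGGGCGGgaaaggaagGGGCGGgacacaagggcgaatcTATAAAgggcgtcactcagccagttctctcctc
Cdk9: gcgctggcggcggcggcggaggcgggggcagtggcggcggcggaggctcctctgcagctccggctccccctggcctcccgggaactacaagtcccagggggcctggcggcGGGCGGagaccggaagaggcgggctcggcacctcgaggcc
Tbpl1: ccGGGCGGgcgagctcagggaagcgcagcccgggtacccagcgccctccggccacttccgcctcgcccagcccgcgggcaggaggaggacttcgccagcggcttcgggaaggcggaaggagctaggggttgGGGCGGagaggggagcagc
The genes that fell are Gtf2h3 at chr5:124578998-124579147 on the plus strand, Taf1b at chr12:24498431-24498580 on the plus strand and Gtf2e1 at chr16:37539790-37539939 on the minus strand.
Gtf2h3: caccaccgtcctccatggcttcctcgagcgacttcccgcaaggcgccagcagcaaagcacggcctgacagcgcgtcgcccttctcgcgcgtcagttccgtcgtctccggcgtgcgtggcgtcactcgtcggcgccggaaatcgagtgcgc
Taf1b: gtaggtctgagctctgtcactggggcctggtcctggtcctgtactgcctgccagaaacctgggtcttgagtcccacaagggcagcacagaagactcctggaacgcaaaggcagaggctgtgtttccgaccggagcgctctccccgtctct
Gtf2e1: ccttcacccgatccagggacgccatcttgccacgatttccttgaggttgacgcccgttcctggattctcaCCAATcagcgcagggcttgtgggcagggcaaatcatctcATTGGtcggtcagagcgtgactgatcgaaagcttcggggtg
In these windows Polr2a held 3 GC boxes and 1 TATA box, Tbpl1 2 GC boxes and Cdk9 1. Gtf2e1 held 2 CCAAT boxes, and Gtf2h3 and Taf1b held none of the 3 motifs. For the genes with 2 listed starts, whose windows are not printed, the Taf5l windows held 1 and 4 GC boxes, and Polr2m held 1 GC box in one window and 1 CCAAT box in the other.

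The 3 genes of the TBP family went different ways in the double knockout. Tbp, which encodes the TATA-binding protein, had 9.95, 9.79, 10.00 and 9.92 in double-knockout arrays, against 10.06, 10.07, 10.11 and 10.07 in wild-type arrays. All 4 double-knockout arrays were below wild type, and Tbp fell by 0.16 ± 0.05 SE (limma adjusted p = 0.0177). The call was lost without double-knockout replicate 2 (limma adjusted p = 0.0675) and when the fit held these 2 groups alone (0.0622). Hdac2-knockout arrays read 9.96, 9.99, 10.05 and 9.97 and Hdac1-knockout arrays 10.05, 10.10, 10.08 and 10.02, and neither was called.

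Tbpl1, a TBP relative that does not bind the TATA box and is needed for sperm formation in mice, read 9.31, 9.30, 9.41 and 9.34 in double-knockout arrays, against 8.73, 8.53, 8.62 and 8.74 in wild-type arrays. The groups were far apart, and it rose 1.61-fold (log2 change 0.69 ± 0.07 SE; limma adjusted p = 8.45e-07). Its arrays read 8.92, 8.69, 8.74 and 8.76 in the Hdac2 knockout and 8.46, 8.47, 8.31 and 8.61 in the Hdac1 knockout. The Hdac1 knockout was lower than the Hdac2 knockout by 0.32 on the log2 scale (limma adjusted p = 0.0138), a call lost without Hdac2-knockout replicate 1 (0.0507). Tbpl1 lies on chromosome 10 with 75 protein-coding genes between it and Hdac2, and the part of that neighbourhood in its change was not tested.

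Tbpl2, the oocyte form of TBP, had 8.07, 8.39, 8.28 and 8.29 in double-knockout arrays, against 8.14, 8.16, 8.10 and 8.00 in wild-type arrays. These overlapped, and the change of 0.16 ± 0.08 SE was not called (limma adjusted p = 0.145), though it passed without double-knockout replicate 1 (0.042). Tbpl2 read 8.30, 8.17, 8.16 and 8.45 in the Hdac2 knockout and 7.84, 7.82, 7.89 and 8.07 in the Hdac1 knockout, where all but replicate 4 lay below wild type. It was higher in the double knockout than in the Hdac1 knockout by 0.35 (limma adjusted p = 0.0022). It was lower in the Hdac1 knockout than in the Hdac2 knockout by 0.36 (limma adjusted p = 0.0145), a call lost without Hdac2-knockout replicate 4 (0.0547).

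TFIIA, which steadies TBP-type factors on DNA, had none of its 3 genes called in the double knockout by limma, and 1 passed at an unadjusted p under 0.05. Of all tested probe sets 38.3% were called and 44.9% passed unadjusted. Gtf2a1 read 12.04, 11.95, 12.05 and 11.98 in double-knockout arrays, against 11.89, 11.90, 12.05 and 11.87 in wild-type arrays. Its germ cell paralogue Gtf2a1l read 8.67, 8.79, 8.47 and 8.68 in double-knockout arrays, against 8.81, 8.85, 8.78 and 8.84 in wild-type arrays. Both pairs of groups overlapped, at changes of 0.08 ± 0.06 SE for Gtf2a1 and -0.17 ± 0.07 SE for Gtf2a1l (limma adjusted p = 0.353 and 0.0522). Gtf2a1l was called lower after median centring of the arrays (limma adjusted p = 0.00462), without double-knockout replicate 2 (0.0172), with dim probe sets left out (0.0297) and with a trended, robust variance prior (0.0465).

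In the Hdac2 knockout Gtf2a1 had 11.98, 11.95, 11.93 and 12.00, and Gtf2a1l had 8.54, 8.72, 8.74 and 8.68, these last 4 all below wild type. The Hdac1 knockout gave 11.96, 11.76, 11.71 and 11.82 for Gtf2a1 and 8.80, 8.73, 8.82 and 8.85 for Gtf2a1l. None of these 4 differences from wild type was called. Gtf2a2, the small TFIIA subunit, changed by 0.05 in the double knockout. Gtf2b, which encodes TFIIB, the bridge between TBP and the polymerase, rose 1.16-fold to 11.64 ± 0.06 in the double knockout, against 11.43 ± 0.0038 in wild type (SD, n = 4; limma adjusted p = 0.0171). That call was lost without double-knockout replicate 2 (0.0505) and after median centring of the arrays (0.173).

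Gtf2e1 of TFIIE fell in the double and Hdac2 knockouts, and Gtf2f1 of TFIIF rose in the Hdac2 knockout. Gtf2e1, the large subunit of TFIIE, which brings in TFIIH, read 6.68, 6.71, 6.53 and 6.90 in double-knockout arrays, against 7.24, 7.34, 7.40 and 7.37 in wild-type arrays. The arrays did not overlap, and Gtf2e1 fell by 0.63 ± 0.07 SE, leaving 64.6% of the wild-type signal (limma adjusted p = 1.39e-06). In the Hdac2 knockout it had 7.03, 7.10, 6.94 and 7.05 and fell by 0.30 ± 0.07 SE (limma adjusted p = 0.0152). Hdac1-knockout arrays, at 7.15, 7.15, 7.15 and 7.16, were also all below wild type, at -0.18, without passing the test (limma adjusted p = 0.455). The small subunit Gtf2e2 changed by -0.06 in the double knockout.

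Gtf2f1, the large subunit of TFIIF, which travels with the polymerase, read 9.35, 9.43, 9.47 and 9.38 in the double knockout and 9.71, 9.71, 9.68 and 9.74 in the Hdac2 knockout, against 9.44, 9.49, 9.47 and 9.51 in wild type. It rose 1.17-fold in the Hdac2 knockout (limma adjusted p = 0.0116), where all 4 arrays were above wild type, while its double-knockout change of -0.07 was not called (limma adjusted p = 0.288). After median centring of the arrays the double knockout was called lower (0.0222). Hdac1-knockout arrays, at 9.58, 9.64, 9.54 and 9.72, were also all above wild type, at 0.14, without a call (limma adjusted p = 0.415). The Hdac1 knockout against the Hdac2 knockout stood at -0.09 for Gtf2f1 and was not called (limma adjusted p = 0.359). Gtf2f2, its partner, changed by 0.01 and 0.01 in the double and Hdac2 knockouts.

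TFIIH opens promoter DNA and also repairs damaged DNA. Of its 5 measured members, 2 fell in the double knockout and the other 3 were not called. That is 40% called, beside 38.3% of all tested probe sets. Gtf2h3, a structural core subunit, read 6.59, 6.54, 6.45 and 6.66 in double-knockout arrays, against 7.15, 7.20, 7.21 and 7.36 in wild-type arrays. The highest double-knockout array was below the lowest wild-type array, and Gtf2h3 fell by 0.67 ± 0.09 SE to 62.8% of the wild-type signal (limma adjusted p = 1.51e-05). Its values were 7.13, 7.13, 7.16 and 7.00 in the Hdac2 knockout and 7.49, 6.98, 7.08 and 7.22 in the Hdac1 knockout, and both overlapped wild type. Gtf2h1, another core subunit, fell by 0.23, at 8.24 ± 0.12 in the double knockout, against 8.47 ± 0.06 in wild type (SD, n = 4; limma adjusted p = 0.00631). Gtf2h4 and Gtf2h5 changed by -0.18 and 0.12 and were not called.

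Of the 3 measured TFIIH subunits whose symbols the choice of members did not take in, Ccnh, the cyclin of Cdk7, fell by 0.21 (limma adjusted p = 0.0337). Mnat1, its assembly factor, and Ercc3, a helicase, changed by -0.21 and -0.11 (limma adjusted p = 0.0641 and 0.334).

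Among the 13 measured TAFs of TFIID, which read promoter DNA and histone marks, 1 rose and 2 fell in the double knockout, and 10 were not called. That is 23.1% called, beside 38.3% of all tested probe sets. Taf10, a subunit of both TFIID and SAGA, rose 1.27-fold to 10.48 ± 0.08 in the double knockout, against 10.13 ± 0.10 in wild type (SD, n = 4; limma adjusted p = 0.000982). A second probe set of Taf10, which also names Ilk, rose by 0.39 (limma adjusted p = 0.00858). Taf2, which touches the DNA at the start site, fell by 0.29 ± 0.07 SE, and Taf8, the partner of Taf10, by 0.23 ± 0.06 SE (limma adjusted p = 0.00205 and 0.00282). In both, the double-knockout arrays lay below the wild-type arrays.

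For Taf1, the largest TAF, the changes were 0.08 (double), 0.28 (Hdac2) and -0.22 (Hdac1), none of them called. It was lower in the Hdac1 knockout than in the Hdac2 knockout by 0.50, at 8.74 ± 0.20 in the Hdac1 knockout, against 9.24 ± 0.18 in the Hdac2 knockout (SD, n = 4; limma adjusted p = 0.0113). The remaining TFIID members in the double knockout ran from -0.12 for Taf6 to 0.16 for Taf4. Taf12 lies 36 protein-coding genes from Hdac1 on chromosome 4, and its changes against wild type were 0.14 in the double, -0.05 in the Hdac2 and -0.07 in the Hdac1 knockout, none called.

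Taf4, the scaffold TAF of somatic cells, and Taf4b, its gonad-enriched form, were not called against wild type in any knockout. Taf4 had 8.51, 8.25, 8.34 and 8.54 in double-knockout arrays, against 8.24, 8.24, 8.23 and 8.30 in wild-type arrays. Taf4b had 8.93, 9.02, 8.88 and 9.03 in double-knockout arrays, against 8.64, 8.79, 8.98 and 8.85 in wild-type arrays. The arrays overlapped in both, at 0.16 ± 0.07 SE and 0.15 ± 0.07 SE (limma adjusted p = 0.0691 and 0.129). Taf4 passed without double-knockout replicate 2 (0.0154), after quantile normalization (0.0307) and with dim probe sets left out (0.0404). Taf4b passed without wild-type replicate 3 (0.0441).

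Hdac2-knockout arrays read 8.59, 8.51, 8.44 and 8.39 for Taf4, all above wild type, and 8.62, 8.62, 8.57 and 8.58 for Taf4b, all below wild type. The changes were 0.23 and -0.22 (limma adjusted p = 0.0536 and 0.111). The Taf4 difference passed after quantile normalization (0.0468) and with dim probe sets left out (0.0288), and the Taf4b difference without wild-type replicate 1 (0.0485). Hdac1-knockout arrays read 8.35, 8.35, 8.46 and 8.38 for Taf4 and 8.93, 8.65, 8.78 and 8.64 for Taf4b. Taf4b was higher in the double knockout than in the Hdac2 knockout by 0.37 ± 0.07 SE (limma adjusted p = 0.00101), with no overlap of the arrays.

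Taf7, which regulates the enzymatic activity of Taf1, read 9.60, 9.81, 9.62 and 9.76 in double-knockout arrays, against 9.68, 9.81, 9.78 and 9.66 in wild-type arrays. These overlapped at a change of -0.03 ± 0.07 SE (limma adjusted p = 0.749), and the other knockouts, at 9.82, 9.57, 9.77 and 9.83 after Hdac2 loss and 9.82, 9.69, 9.65 and 9.72 after Hdac1 loss, overlapped too. Its germ cell paralogue Taf7l was dim everywhere, with 3.37, 3.70, 3.34 and 3.80 in double-knockout arrays, against 3.47, 3.29, 3.41 and 3.36 in wild-type arrays. Taf7l had 3.42, 3.47, 3.39 and 3.40 in the Hdac2 knockout and 3.52, 3.38, 3.37 and 3.43 in the Hdac1 knockout. All 16 arrays of Taf7l were below the median of tested probe sets (5.27), and its difference from wild type in the double knockout was called without double-knockout replicate 3 (0.0368).

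Taf7l2, a further Taf7-like gene, was also dim. It rose 1.28-fold in the Hdac2 knockout, with 4.75, 4.62, 4.70 and 4.99, against 4.32, 4.51, 4.48 and 4.32 in wild type (limma adjusted p = 0.0396). That call failed when wild-type replicate 1, 3 or 4 or Hdac2-knockout replicate 1, 3 or 4 was left out (limma adjusted p = 0.0569 to 0.121). In the double knockout its arrays, at 4.03, 4.30, 4.18 and 4.20, lay below wild type, at -0.23 (limma adjusted p = 0.0705). After median centring of the arrays that difference was called lower (limma adjusted p = 0.0177), and the rise in the Hdac2 knockout was not called (0.053).

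Taf9, a histone-fold TAF of TFIID and SAGA, read 10.32, 10.50, 10.48 and 10.54 in double-knockout arrays, against 10.33, 10.22, 10.39 and 10.28 in wild-type arrays. Its X-linked paralogue Taf9b read 11.26, 11.28, 11.25 and 11.42 in double-knockout arrays, against 11.35, 11.33, 11.23 and 11.26 in wild-type arrays. Both overlapped, at 0.15 ± 0.06 SE for Taf9 and 0.01 ± 0.05 SE for Taf9b (limma adjusted p = 0.0666 and 0.918). Taf9 was called higher without wild-type replicate 3 (0.0486) or double-knockout replicate 1 (0.0179), and also after quantile normalization, with dim probe sets left out and with the trended, robust prior (0.0309, 0.0371 and 0.0324). A probe set of Taf9 that also names Ak6 changed by 0.22 (limma adjusted p = 0.0768), and RefSeq lists a Taf9 pseudogene.

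The Hdac2 knockout had 10.18, 10.21, 10.21 and 10.09 for Taf9, all below wild type, and 11.39, 11.43, 11.54 and 11.44 for Taf9b, all above wild type, neither called. The Taf9b difference passed with dim probe sets left out (0.0461) and with a trended, robust variance prior (0.0266). Hdac1-knockout arrays read 10.35, 10.28, 10.37 and 10.18 for Taf9 and 11.36, 11.41, 11.42 and 11.39 for Taf9b, with Taf9b again above wild type. Taf9 was higher in the double knockout than in the Hdac2 knockout by 0.29 ± 0.06 SE (limma adjusted p = 0.00167).

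**Figure D3:**
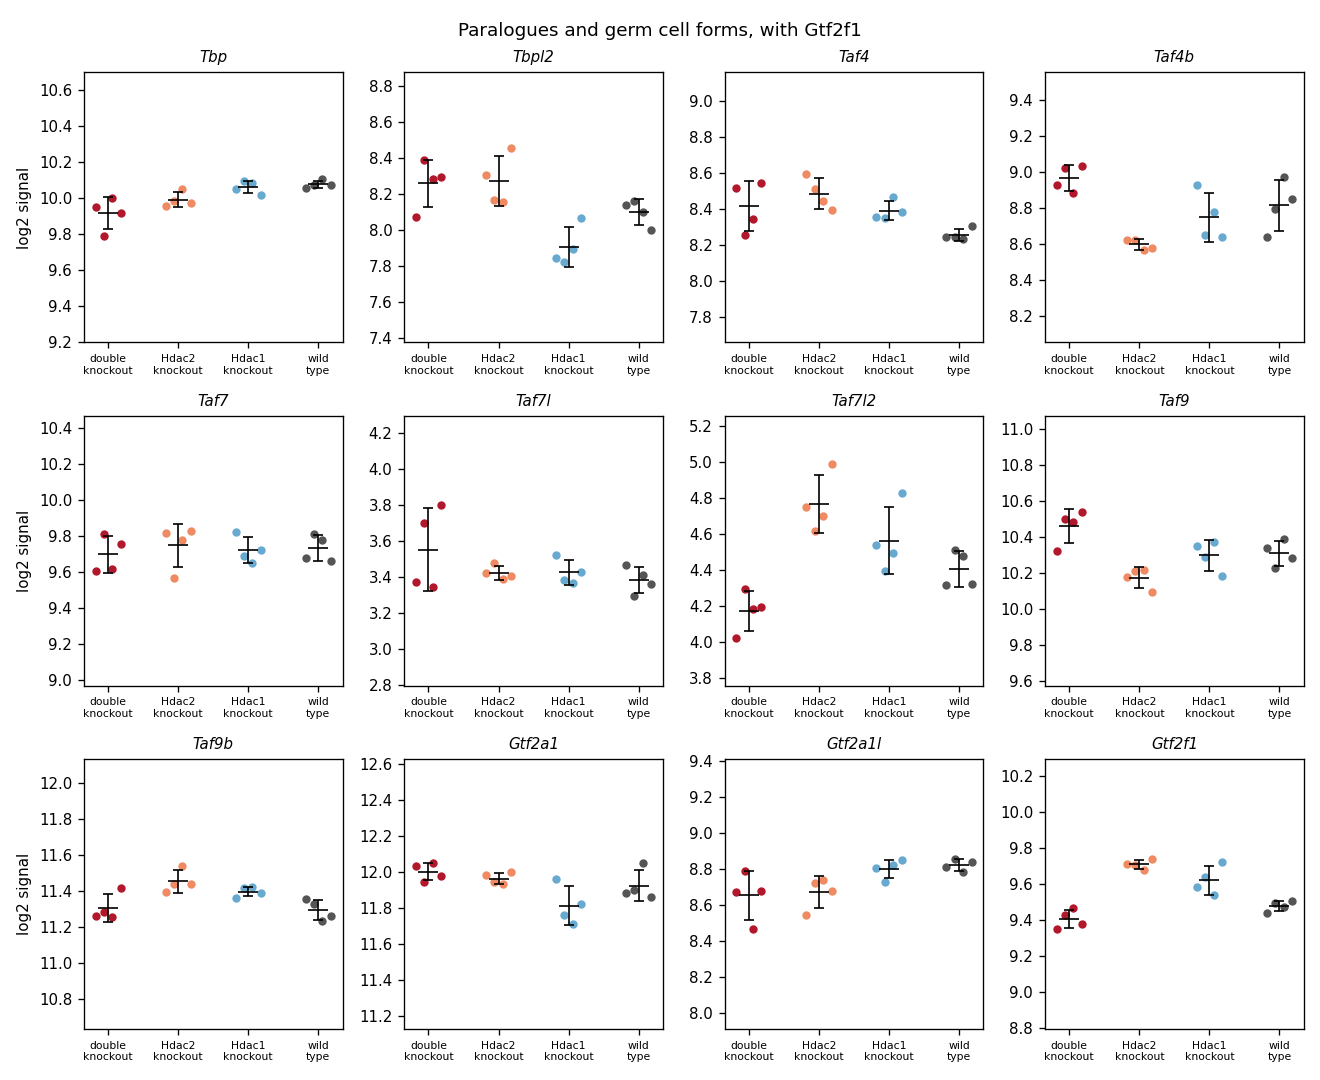
Log2 signal (vertical axis) of the paralogue pairs and germ cell forms and of Gtf2f1, with 4 arrays per genotype as points, the mean as a bar and the SD as whiskers; each panel has its own range of at least 1.5 log2 units. The double-knockout arrays of Tbp lie below wild type, those of Tbpl2, Taf4, Taf4b, Taf7, Taf9 and Taf9b overlap wild type, and Taf7l2 is lowest in the double knockout and highest in the Hdac2 knockout.

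Outside TFIID, Taf5l, a Taf5 paralogue of the SAGA complex, read 8.26, 8.16, 7.96 and 8.35 in double-knockout arrays, against 8.70, 8.72, 8.69 and 8.73 in wild-type arrays. Every double-knockout array was below wild type, and Taf5l fell by 0.53 ± 0.08 SE, leaving 69.5% of the signal (limma adjusted p = 8.43e-05). The Hdac2 knockout had 8.27, 8.24, 8.56 and 8.27, also all below wild type, and fell by 0.37 (limma adjusted p = 0.0154), a call lost by a small margin without Hdac2-knockout replicate 1 (0.05). Hdac1-knockout arrays, at 8.70, 8.79, 8.87 and 8.68, overlapped wild type.

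Taf1b belongs to the factor that starts ribosomal RNA synthesis by polymerase I. It read 9.65, 9.72, 9.62 and 9.86 in double-knockout arrays, against 10.40, 10.25, 10.47 and 10.38 in wild-type arrays. The groups were apart, and Taf1b fell by 0.66 ± 0.07 SE to 63.4% of the wild-type signal (limma adjusted p = 7.55e-07). Hdac2-knockout arrays read 10.28, 10.34, 10.36 and 10.45 and Hdac1-knockout arrays 10.21, 10.31, 10.22 and 10.41, both overlapping wild type. Taf1a, of the same factor, changed by -0.07 and Taf1d by 0.10, with the second brightest of the 12 Taf1d probe sets at -0.40 (limma adjusted p = 0.000888) and 4 others identical to each other, so Taf1d is uncertain. The 2 probe sets that name Taf1c of the same factor beside Dnaaf1 changed by 0.61 and -0.34 in the double knockout (limma adjusted p = 5.05e-05 and 0.0349), so they moved in opposite directions. The 2 that name Taf6l, of the SAGA co-activator, beside Tmem179b changed by -0.27 and -0.19 (limma adjusted p = 0.0427 and 0.085). For probe sets that name more than 1 gene, the adjustment is over all probe sets of the table.

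The 3 genes of the TFII-I family and Taf15, which share the naming but are not basal factors, had 1 call in the double knockout. Of all tested probe sets 38.3% were called there. Gtf2ird1 was called 1.17-fold higher in the double knockout, at 5.37, against 5.14 in wild type (limma adjusted p = 0.047). The arrays of these groups overlapped, and the call failed when wild-type replicate 2, 3 or 4 or double-knockout replicate 1, 3 or 4 was left out (limma adjusted p = 0.0525 to 0.166) and after median centring of the arrays (0.213). Gtf2i, Gtf2ird2 and Taf15, an RNA-binding protein, changed by 0.08, 0.06 and -0.12 and were not called.

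The Hdac2 knockout changed 5 of the 57 members against wild type, Polr2a, Gtf2f1 and Taf7l2 higher and Gtf2e1 and Taf5l lower. This is 8.77%, beside 5.59% of all tested probe sets (2.86% higher and 2.74% lower). Polr2a rose 1.36-fold to 9.62 ± 0.22, against 9.18 ± 0.09 in wild type (SD, n = 4; limma adjusted p = 0.00855). None of the 5 reached 1.4-fold. Polr2a, Gtf2e1 and Taf5l changed in the same direction in the double knockout, a comparison that uses the same wild-type arrays. The count fell to 3 without Hdac2-knockout replicate 1, where Taf5l and Taf7l2 lost their calls (limma adjusted p = 0.05004 and 0.0825). Polr2a, which had its highest value of the group in that array, kept its call in all 8 fits that left out 1 array. The median change over the members was -0.01, and over all tested probe sets -0.01.

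The Hdac1 knockout changed 0 of the 57 members by limma at an adjusted p under 0.05, where 0.0707% of all tested probe sets were called (0.0189% higher and 0.0518% lower). At an unadjusted p under 0.05, 8 members passed, 4 higher and 4 lower, or 14.0%, beside 8.7% of tested probe sets. The smallest adjusted p belonged to Taf3, a TAF that reads trimethylated histone H3 at lysine 4 (limma adjusted p = 0.302), at 9.79 ± 0.09 in the Hdac1 knockout, against 9.59 ± 0.03 in wild type (SD, n = 4). Changes ran from -0.22 for Taf1 to 0.33 for Taf1d.

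**Figure D4:**
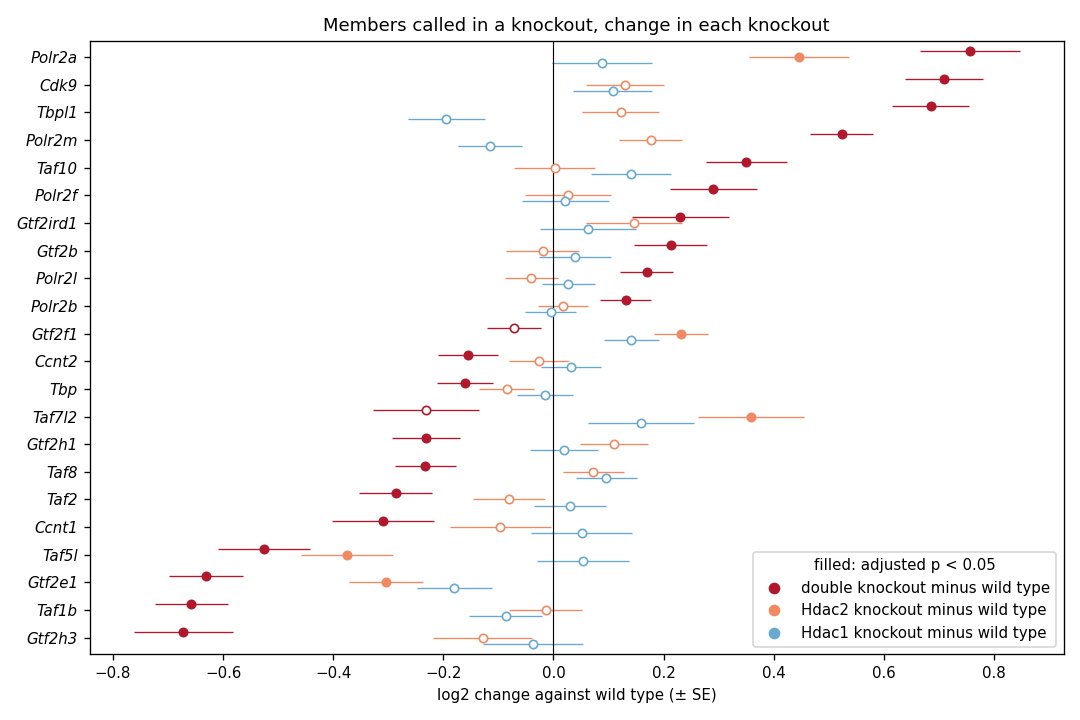
Log2 change against wild type with its standard error (horizontal axis) for the 22 members called in the double or Hdac2 knockout, with 1 row per gene and the double, Hdac2 and Hdac1 knockouts in red, orange and blue; filled points are called. All 3 comparisons share the 4 wild-type arrays. Polr2a, Gtf2e1 and Taf5l have filled points in the double and the Hdac2 knockouts, and the Hdac1 knockout has none.

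Set against the Hdac1 knockout, the double knockout differed in 35 of 57 members, 17 higher and 18 lower (61.4%), beside 38.7% of tested probe sets (18.7% higher and 20.1% lower). Of these calls 21 held in all 8 fits that left out 1 array, and without Hdac1-knockout replicate 2 the count was 22. After median centring of the arrays 6 were higher and 23 lower. All tested probe sets shifted the same way, to 2886 higher and 6907 lower against 3964 and 4256 as deposited. Tbpl1 showed the largest difference, at 9.34 ± 0.05 in the double knockout, against 8.46 ± 0.12 in the Hdac1 knockout (SD, n = 4), which is 1.84-fold (limma adjusted p = 5.1e-08). Polr2a, Polr2m and Cdk9 were 1.59-fold, 1.56-fold and 1.52-fold higher, and Gtf2h3, Taf5l and Taf1b lower by 0.63, 0.58 and 0.57 on the log2 scale. Several TFIID genes were among the calls: Taf13 was higher by 0.28 and Taf12 by 0.21, while Taf8, Taf2, Taf3 and Taf6 were lower by 0.33, 0.32, 0.30 and 0.27 (limma adjusted p = 0.000146 to 0.00578). The Taf12 call was lost after median centring of the arrays.

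Set against the Hdac2 knockout, the double knockout differed in 21 members, 12 higher and 9 lower (36.8%), beside 33.7% of tested probe sets (16.8% higher and 16.9% lower). After median centring of the arrays, 6 were higher and 18 lower, and over all tested probe sets 2459 were higher and 5602 lower, against 3566 and 3589 as deposited. Cdk9 was 1.49-fold higher and Tbpl1 1.48-fold higher, and Taf1b, Taf7l2 and Gtf2h3 were lower by 0.64, 0.59 and 0.54 (limma adjusted p = 1.64e-06 to 0.000177). Polr2a was 1.24-fold higher (limma adjusted p = 0.0138), a call lost under that centring, and Taf5l was not called, at -0.15 ± 0.08 SE (limma adjusted p = 0.188).

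The knockouts of 1 gene were also compared with each other, the Hdac1 knockout against the Hdac2 knockout. There 6 members were called, 1 higher and 5 lower (10.5%), beside 5.78% of tested probe sets (2.81% higher and 2.96% lower). Taf5l was higher by 0.43 in the Hdac1 knockout, and Taf1, Tbpl2, Polr2a, Tbpl1 and Polr2m were lower by 0.50, 0.36, 0.36, 0.32 and 0.29 (limma adjusted p = 0.00678 to 0.0284). The Polr2a call was lost without Hdac1-knockout replicate 1, 2 or 3 or Hdac2-knockout replicate 1 or 4 (limma adjusted p = 0.0537 to 0.081). For Taf1, Polr2m and Taf5l the call held in all 8 fits that left out 1 array.

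Whether the double knockout departed from the sum of the changes in the knockouts of 1 gene was tested as an interaction. It was called for 16 members, 7 positive and 9 negative (28.1%), beside 23.3% of tested probe sets (11.7% positive and 11.6% negative). With the arrays centred on their medians, 5 members were positive and 14 negative, and the probe sets called were 1731 positive and 3903 negative, against 2479 and 2460 as deposited. Tbpl1 had the largest positive interaction, at 0.76 ± 0.10 SE (limma adjusted p = 4.47e-05), followed by Cdk9 (0.47), Polr2m (0.46), Taf4b (0.43) and Taf13 (0.39). Negative interactions included those of Taf7l2 (-0.75), Taf1b (-0.56), Gtf2h3 (-0.51) and Gtf2f1 (-0.45). The 12 polymerase subunits had 0 called interactions by limma, with 3 at an unadjusted p under 0.05, and Polr2a stood at 0.22 ± 0.13 SE (limma adjusted p = 0.245). Gtf2e1 and Taf5l, which also fell in the Hdac2 knockout, were not called either, at -0.15 and -0.20 (limma adjusted p = 0.312 and 0.245).

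The other genes of the transcription pathway were described through listed sets, and 38.3% of all tested probe sets were called in the double knockout, 18.5% higher and 19.8% lower. Of 32 measured Mediator genes, the complex that links activators to the polymerase, 8 rose and 12 fell in the double knockout, with a median change of -0.09. Med12 and Med12l of its kinase module fell by 0.55 and 0.54, Med11 fell by 0.59, and Med21 rose 1.38-fold. Of 31 pausing and elongation genes 11 rose and 7 fell (median 0.07). Hexim1 and Mepce, which hold P-TEFb inactive, rose 1.73-fold and 1.42-fold, Ctr9, of the PAF complex, rose 1.72-fold, and Aff1, a scaffold of the super elongation complex, fell by 0.45. Hexim1 was dim, at 5.74 in the double knockout, against 4.94 in wild type. The highest limma adjusted p among these 8 genes was 5.02e-05.

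Beside the same 38.3% of tested probe sets, of 12 SAGA genes whose symbols lie outside the choice of members, 2 rose and 5 fell (median -0.06). The deubiquitinase Usp22 rose 1.65-fold, Atxn7, its anchor, fell by 0.47, Supt7l by 0.45, and Kat2a, the acetyltransferase, by 0.35. Of 13 genes for phosphatases of the polymerase tail and for polymerase assembly, 3 rose and 5 fell (median -0.06). Ctdsp2, a small tail phosphatase, rose 1.97-fold and Gpn3, an assembly GTPase, 1.57-fold, while Rprd2 fell by 0.32 and Rpap1 by 0.44. Of 22 polymerase I and III genes 3 rose and 10 fell (median -0.18), led by Bdp1, a polymerase III initiation factor, at -0.80, Twistnb at -0.77, and the polymerase III subunits Polr3b and Polr3a at -0.52 and -0.45. The highest limma adjusted p among these 12 genes was 0.000595. In the Hdac2 knockout, where 5.59% of tested probe sets were called and 2.74% were lower, limma called 4 genes of these sets: Hexim2 and Tcea3 of elongation, Rpap2 of polymerase assembly and Polr3b, at changes of -0.26, -0.26, -0.28 and -0.18. They are named because the count is small, after their values were seen.

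**Figure D5:**
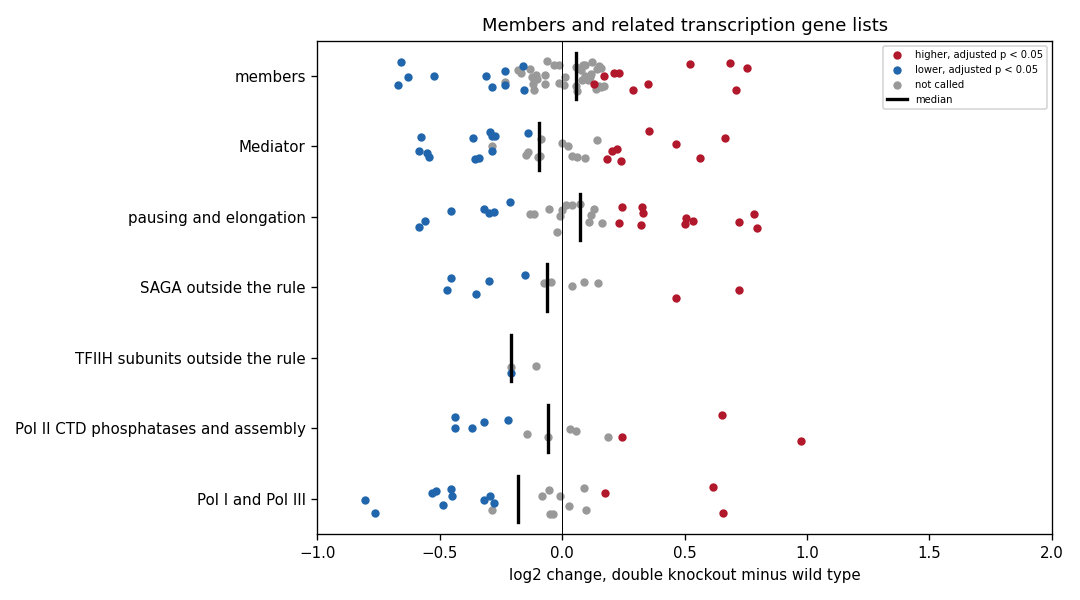
Log2 change in the double knockout against wild type (horizontal axis) for the 57 members and 6 related lists, 1 point per gene and the median of each list as a black bar. Red points are called higher and blue points lower; the polymerase I and III list has the lowest median among lists of more than 3 genes, at -0.18, and the members' median is 0.05.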

How the data were processed

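The deposited table holds 1 log2 value per probe set and array for 35556 probe sets on 16 arrays. The base is inferred from the range of 2.07 to 12.89. Per the submitters' processing notes the authors used MAS5, and their design text adds GeneSpring v7 and the programs SAM and EASE, the last with a 1.4-fold limit. The sources used here do not say how these made the deposited values or whether arrays were normalized together. The number of arrays limits the precision.

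Probe sets with exactly 1 gene symbol (21218) were tested; 1881 named several genes and 12457 none. The fit over the 16 arrays had 1 mean for each genotype, in limma 3.58.1 and R 4.3.3 (lmFit, contrasts, eBayes; 12 residual degrees of freedom), with two-sided p-values adjusted by the Benjamini-Hochberg method over all tested probe sets. The fit was tested on simulated data. SE is the standard error from limma, and SD is taken within a group of 4. The members and the lists were chosen with earlier results of these data known. Values in every array are given for members called with a change of at least 1.4-fold, for the paralogue pairs and for Polr2a and the kinases and cyclins, and up to 4 genes of each related list by adjusted p in the double knockout. Promoter windows came from the RefSeq table of GRCm38.p6. Alternatives were 2 scalings, filters, another prior, gene means, a replicate block and leaving out each array.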

Additional observations from a re-analysis of the deposited data

Results flagged for a closer look

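In 7 of 128 groups of 4 arrays, for the 32 members described by name, 1 array stood apart from the other 3 (Dixon's test at the 95% level, which chance meets in about 1 in 20 groups). They were Ccnt2 in double-knockout replicate 4 at 9.45, Cdk7 in double-knockout replicate 1 at 9.33, Cdk9 in double-knockout replicate 2 at 8.48 and Taf5l in Hdac2-knockout replicate 3 at 8.56. The others were Gtf2e1 in Hdac1-knockout replicate 4 at 7.16, where the other arrays lay at 7.15, and wild-type replicate 3 for Polr2f at 9.47 and for Taf10 at 9.97. No array came up for more than 2 genes.

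The interaction term was called for 12 of these 32 members, beside 23.3% of tested probe sets. Many of the 32 were named for a call in the double knockout, whose arrays also enter the interaction, so the count is a description. The term was positive for Tbpl1 (0.76), Cdk9 (0.47), Polr2m (0.46), Taf4b (0.43) and Taf9 (0.30). It was negative for Taf7l2 (-0.75), Taf1b (-0.56), Gtf2h3 (-0.51), Gtf2f1 (-0.45), Taf8 (-0.40), Gtf2h1 (-0.36) and Taf9b (-0.25). The limma adjusted p ran from 4.47e-05 for Tbpl1 to 0.0215 for Taf9b. After median centring of the arrays, the interaction of Taf9 was no longer called.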

How the results depend on the processing

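Counting only calls of 1.4-fold or more left 8 of 20 members in the double knockout against wild type, 0 of 5 in the Hdac2 knockout, 7 of 35 and 5 of 21 in the double knockout against the Hdac1 and Hdac2 knockouts, 1 of 6 between the knockouts of 1 gene and 5 of 16 for the interaction. Over all tested probe sets, 1772 higher and 1700 lower of 8122 calls were left in the double knockout, and 242 and 212 of 1187 in the Hdac2 knockout. Against the Hdac1 and Hdac2 knockouts, 1793 and 1725 of 8220 and 1386 and 1190 of 7155 were left. Between the knockouts of 1 gene 196 and 273 of 1226 were left, and for the interaction 1430 and 1255 of 4939. Leaving out 1 array gave 17 to 20 calls in the double and 3 to 6 in the Hdac2 knockout, 22 to 31 and 19 to 22 for the double knockout against the Hdac1 and Hdac2 knockouts, 4 to 7 between the knockouts of 1 gene and 15 to 18 for the interaction. The Hdac1 knockout against wild type stayed at 0 calls under every alternative run. With the replicate block 19 members were called in the double knockout, Polr2b losing its call (limma adjusted p = 0.0575), and 5 in the Hdac2 knockout; against the Hdac1 and Hdac2 knockouts the counts were 28 and 20, between the knockouts of 1 gene 6 and for the interaction 16. Arrays that share a replicate number correlated at -0.15 to 0.09 in their deviations from the group means (24 pairs), and arrays of different numbers at -0.12 to 0.20 (72 pairs). The labels do not say whether arrays of 1 number were handled together, and these correlations cannot tell. Centring each array gave 28 calls in the double knockout, 6 higher and 22 lower, and quantile normalization 22, 9 higher and 13 lower. Over all tested probe sets, centring gave 2878 higher and 6275 lower and quantile normalization 3708 and 4651, against 3924 and 4198 as deposited. With dim probe sets left out 27 members were called, and with a trended, robust prior 24. Counts over all probe sets are not given for the dim filter, the prior, the replicate block or the fits without 1 array. The member counts under those settings are a description only. No change called against wild type turned its direction, and for the other comparisons direction was not followed member by member.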
